A study of Zea mays with 9 samples.

Results

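In young maize tassels, 111 of 39305 annotated genes had more transcript in Bif1;Bif4 plants than in wildtype while staying near the wildtype level in ndl1 plants. These 111 genes, called members here, were chosen from their measured levels. L is the log2 ratio of the mutant mean to the wildtype mean of normalized counts, with 1 added to each mean. A normalized count is the number of reads of a gene divided by a scaling factor of its library. A member had a Bif1;Bif4 mean of at least 50 normalized counts and an L of at least 1 in Bif1;Bif4. Both of its Bif1;Bif4 libraries also lay above all 3 wildtype libraries, and its L in ndl1 lay between -0.5 and 0.5. In all, 420 genes met the Bif1;Bif4 limits whatever their ndl1 ratio. Of these, 271 lay above the ndl1 window and 38 below it, so that the members were the smaller share of the genes raised in Bif1;Bif4. Because these limits used the comparisons of both mutants with wildtype, the values of members in those comparisons are a description and carry no test.

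Tassels, the male inflorescences of maize, were collected at 2 to 4 mm from field-grown plants of the B73 inbred background, and their messenger RNA was sequenced. There were 2 Bif1;Bif4 libraries, 4 ndl1 libraries and 3 wildtype libraries. Bif1;Bif4 plants were double heterozygous, with 1 mutant allele at each of the genes Bif1 (Barren inflorescence1) and Bif4, and are also called the double mutant below. The ndl1 (needle1) plants carried a mutation in a gene labelled zmftsh10, and tassels of severe phenotype, in which some axillary meristems had still arisen, were among those sampled. Wildtype plants carried neither kind of mutation, per the labels. No label says whether the libraries of a group came from separate plants or pools of plants, or how often the mutants had been crossed to B73. The p-values below therefore cover the spread among these libraries alone, which may be technical.

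Bif1 and Bif4 encode Aux/IAA proteins. These are short-lived repressors that bind auxin response factors and hold auxin target genes silent until auxin triggers their degradation. Auxin maxima mark the sites where axillary meristems arise on the flank of an inflorescence, and maize mutants that disturb auxin signalling make tassels with few branches and spikelets. NDL1 is an FtsH-type protease, an enzyme that sits in a membrane and degrades proteins with energy from ATP.

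The libraries held 16863087 to 22533736 reads counted to genes. The meristem homeobox gene kn1, a marker of inflorescence meristems, stood at 5795.7 and 5983.4 normalized counts in the double mutant and at 7544.4, 8534.0 and 7603.4 in wildtype. It was abundant in both groups and fell in Bif1;Bif4 by limma, with a log2 change of -0.42 ± 0.09 (SE, Benjamini-Hochberg adjusted p = 0.0479), a call that edgeR did not make (Benjamini-Hochberg adjusted p = 0.0504). Transcripts of BIF1 (GRMZM2G130953) stood at 138.4 and 451.4 in the double mutant and at 390.7, 486.0 and 239.2 in wildtype (limma, Benjamini-Hochberg adjusted p = 0.589). Those of BIF4 (GRMZM5G864847) stood at 105.4 and 206.9 in the double mutant and at 260.8, 244.0 and 151.1 in wildtype (limma, Benjamini-Hochberg adjusted p = 0.406). Groups overlapped for both genes, so that transcript amount does not check the genotype labels. Normalized counts of ndl1 libraries below come from a separate table that holds the same wildtype reads under slightly different scaling factors. Wildtype values are those of the table with Bif1;Bif4.

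Most members differed from wildtype by a moderate factor. The median L was 1.21, a 2.31-fold higher level, and 88 of the 111 members had an L under 1.5. An L of at least 2 was reached by 12 members, of at least 3 by 10 and of at least 5 by 8. Over all genes tested the median L was -0.00. In bulk tissue, more cells of a kind and more transcript per cell cannot be told apart. The median log2 ratio of a library to the wildtype mean was 1.26 in replicate 1 and 1.25 in replicate 2, and 83 and 87 members lay at least 2-fold above the wildtype mean in them. The rule required both libraries to lie above wildtype, so these medians are a description. In the ndl1 libraries the same median was 0.01, 0.04, 0.24 and 0, with 0, 0, 2 and 2 members at least 2-fold above. The wildtype libraries had medians of 0.02, -0.04 and -0.00.

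**Figure D1:**
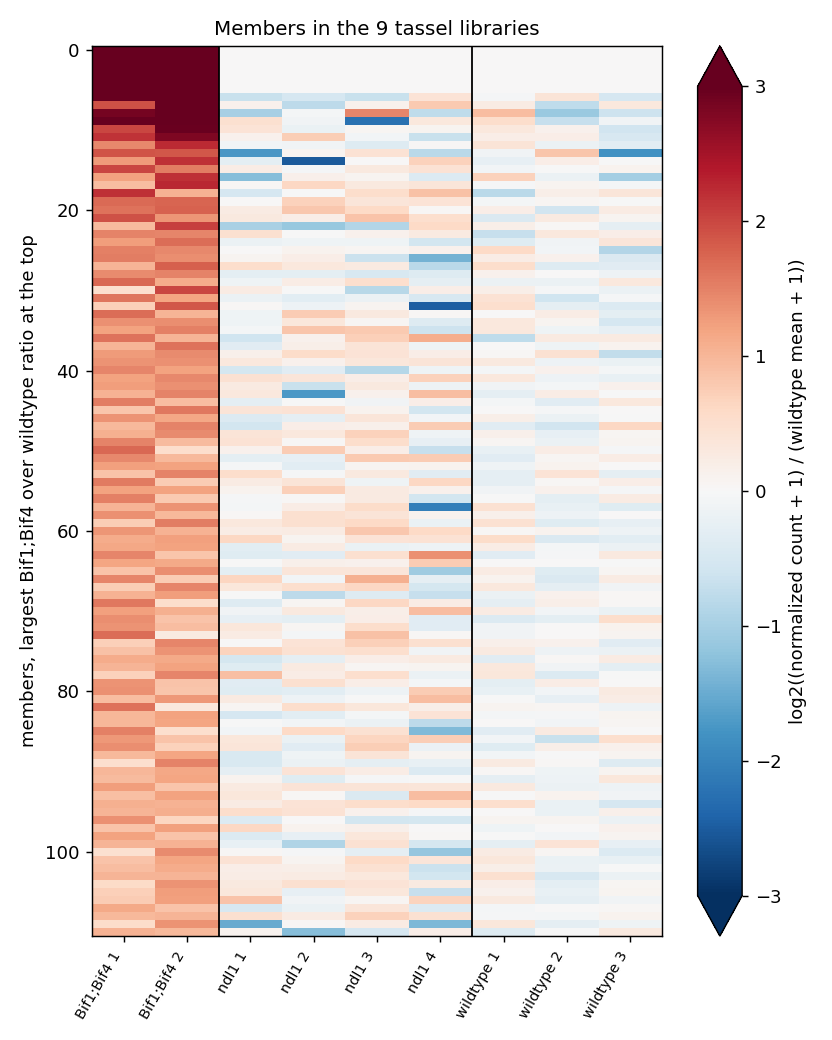
Each row is 1 of the 111 members, ordered by L in Bif1;Bif4 with the largest at the top, and each column is 1 library. Colour is the log2 ratio of the normalized count plus 1 to the wildtype mean plus 1 of the same table, with colours saturating at 3. Both Bif1;Bif4 columns are raised in every row, as the rule requires, and the ndl1 and wildtype columns scatter around 0.

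The window on ndl1 left a small tilt upwards. The median L of members in ndl1 was 0.12, with 68 members positive, 37 negative and 6 at exactly 0, beside a median of 0.00 over all genes tested in ndl1. Both ratios of a member share the wildtype libraries and are not independent, so the tilt is a description. Of the members, 106 had ndl1 and wildtype ranges that overlapped, 3 had all 4 ndl1 libraries above wildtype and 2 had all 4 below. Over all genes tested, 20.1% had no overlap in either direction in that comparison. When the 9 libraries were scaled together, all 4 ndl1 libraries lay below both double mutant libraries for 97 members. For the other 14, at least 1 ndl1 library reached the lower double mutant library. Replicate 3 did so for 6 members, replicate 4 for 4, replicate 2 for 3 and replicate 1 for 2. The limits of the rule on both ratios favour ndl1 libraries below those of the double mutant, so these counts are a description. The matching share over all genes was not computed.

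The limits cut through a continuous spread of ratios. GRMZM2G049781 was just inside the limit on L with 1.00133, and GRMZM2G119494 just outside with 0.998846. On the mean, GRMZM2G076394 was just inside with 50.1 normalized counts and GRMZM2G701024 just outside with 48.25. At the upper ndl1 limit GRMZM2G420571 was inside with an L of 0.49 and GRMZM2G471089 outside with 0.50. At the lower one GRMZM2G094273 was inside with -0.44 and GRMZM2G018022 outside with -0.55. The last of these had an L of 6.70 in Bif1;Bif4, so that 1 of the genes with the largest ratios missed membership by its ndl1 value alone. With a Bif1;Bif4 mean of 548.75, that L leaves it a few normalized counts in wildtype and ndl1. Its ndl1 value thus rests on few reads.

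**Figure D2:**
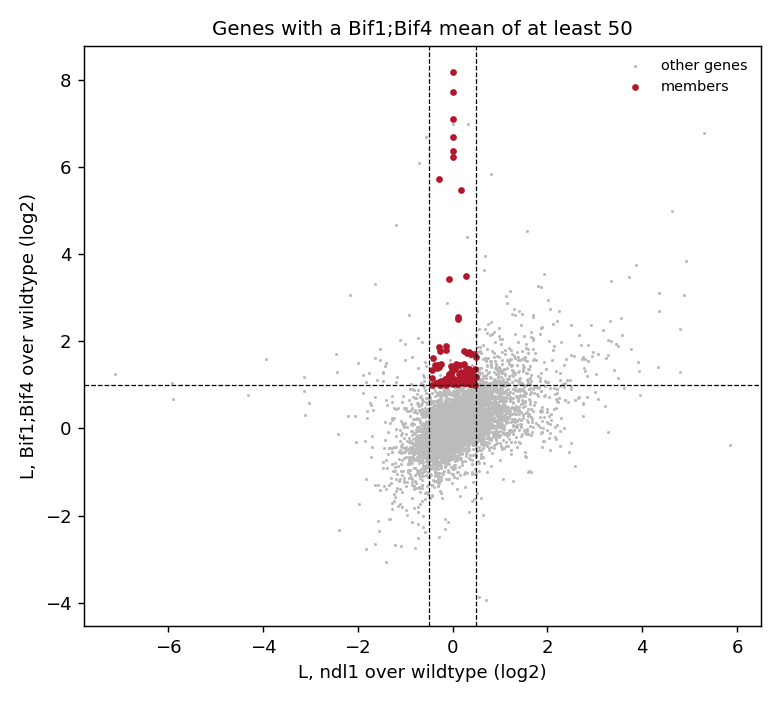
Each point is 1 gene with a Bif1;Bif4 mean of at least 50 normalized counts, with L in ndl1 on the horizontal axis and L in Bif1;Bif4 on the vertical axis. Dashed lines mark an L of 1 in Bif1;Bif4 and of -0.5 and 0.5 in ndl1. The red members fill the window above the line, most of them near its lower edge and 8 above an L of 5.

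By limma across all genes, 110 members could be tested in Bif1;Bif4 and 61 were called higher, beside 2.23% of the 22381 genes tested (4.28% in either direction). Both mutant libraries lay above all wildtype libraries for 20.9% of these genes, and for every member by the rule. The number of members called was 64 with edgeR and 95 with DESeq2, and 95 had an adjusted p under 0.05 in the authors' deposited table. Without wildtype replicate 2 the number called by limma was 0, and without Bif1;Bif4 replicates 1 and 2 it was 4 and 3. In ndl1, 101 members could be tested and 0 were called by limma, edgeR or DESeq2, with 3 at an unadjusted limma p under 0.05, beside 3.16% of 22416 genes called by limma. The rule used both contrasts, so nothing is read from these counts.

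The members with the largest ratios had no read in any wildtype or ndl1 library. There were 6 of them, GRMZM2G389015, GRMZM2G032887, GRMZM2G368738, GRMZM2G326116, AC235540.1_FG001 and GRMZM2G089472, singled out after their values were seen. GRMZM2G389015 had 502.7 and 75.2 normalized counts in the double mutant libraries, from 563 and 72 reads, against 0 reads in all 3 wildtype libraries. With a floor of 3 reads over the wildtype group, equal to 1.01 normalized counts, it was at least 285-fold higher in Bif1;Bif4. GRMZM2G032887 had 126.8 and 297.8 normalized counts in Bif1;Bif4, which was at least 209-fold higher, and GRMZM2G368738 had 64.3 and 209.0, at least 135-fold higher. These 3 were detected in both double mutant libraries at levels that differed more than 2-fold, with replicate 1 the higher for the first gene and replicate 2 for the other two.

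The remaining members without wildtype reads were more even. GRMZM2G326116 had 81.3 and 124.3 normalized counts in the double mutant libraries and was at least 101-fold higher than the wildtype floor. AC235540.1_FG001 had 60.7 and 102.4 and was at least 80.4-fold higher, and GRMZM2G089472 had 52.7 and 96.1 and was at least 73.4-fold higher. For each, replicate 2 was above replicate 1. A pair of further members came close to this pattern. GRMZM2G143403 had 86.6 and 224.7 normalized counts in the double mutant against 1.9, 2.9 and 1.1 in wildtype, an L of 5.72. GRMZM2G349791 had 5.4 and 144.2 in the double mutant against 1.0, 0 and 1.1 in wildtype, so that its L of 5.48 rests on replicate 2. Without that library its L was 1.91.

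Genes with reads in Bif1;Bif4 alone were also found below the limit on the mean. In all, 21 genes had no read in any ndl1 or wildtype library and a Bif1;Bif4 mean of at least 10 normalized counts, and 7 had a mean of at least 50, 1 of which was no member. In the other direction, 19 genes had no Bif1;Bif4 read and a wildtype mean of at least 10, and 1 a wildtype mean of at least 50. With the ndl1 mean held to the same limits as well, these counts were 4 and 0. The directions are not alike in depth, since absence was read from 7 libraries in one and from 2 in the other. Of the 6 members without reads elsewhere, 5 matched no gene of the RefSeq annotation of assembly Zm-B73-REFERENCE-NAM-5.0. Of all 10 members with an L of at least 3, 3 matched, against 69 of the 101 members with a smaller L. Members as a whole matched in 64.9% of cases, against 72.1% of the 18663 genes with a Bif1;Bif4 mean of at least 50. Whether the identifiers without a match share a sequence type or origin was not tested.

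A descriptive gene name was carried by 14 of the 111 members (12.6%), against 7.21% of all identifiers and 10.1% of the genes with a Bif1;Bif4 mean of at least 50. Of the members, 71 of the 72 matched ones were listed as protein-coding and 1 as a microRNA. The named members had L values of 1.01 to 3.51 with a median of 1.15, against a median of 1.21 for the 97 without a name. They are described here by role, beginning with regulators of transcription and small RNA.

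MIR390a gives rise to miR390, a microRNA that guides cleavage of TAS3 transcripts and so starts the small RNAs that limit ARF3-type auxin response factors. Its precursor transcript (zma-MIR390a) had 83.0 and 75.2 normalized counts in the double mutant libraries, 29.7, 32.4, 17.6 and 9.9 in the ndl1 libraries, and 32.7, 30.6 and 20.6 in the wildtype libraries. The L was 1.47 in Bif1;Bif4 and -0.32 in ndl1, and no library of the other groups came within 2-fold of the double mutant libraries. The gene lbl1, whose product acts in the same small RNA pathway after the cleavage step, was not a member: its log2 change in Bif1;Bif4 was -0.09 ± 0.10 (SE, limma, Benjamini-Hochberg adjusted p = 0.634). ARF3 (GRMZM2G078274) was no member either, and was not lower in the mutants. Its log2 change was 0.61 ± 0.21 in Bif1;Bif4 (limma, Benjamini-Hochberg adjusted p = 0.152). In ndl1 ARF3 rose by 0.69 ± 0.14 (limma, Benjamini-Hochberg adjusted p = 0.0401). Any link of these levels to MIR390a was not tested.

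AUX17 (GRMZM2G079957), named as a gene of the Aux/IAA family to which BIF1 and BIF4 belong, had 479.5 and 818.2 normalized counts in the double mutant libraries. It had 297.2, 392.7, 486.7 and 415.9 in the ndl1 libraries and 329.1, 322.4 and 230.1 in the wildtype libraries. Bif1;Bif4 replicate 1 lay inside the ndl1 range, and the L was 1.14 in Bif1;Bif4 and 0.43 in ndl1. The 17 other tested genes with AUX or IAA names include the mutated genes BIF1 and BIF4 and the auxin carrier gene aic1. Of these 17, 0 rose in Bif1;Bif4 by limma and 1 fell, beside 2.23% and 2.05% of all genes tested. At an unadjusted limma p under 0.05, 6 of these relatives were higher and 2 lower, and DESeq2 called 3 higher and 2 lower where edgeR called 0 and 1. AUX10 fell, with 70.5 and 34.5 normalized counts in the double mutant against 177.1, 351.1 and 289.6 in wildtype, so that its fitted log2 change was -2.38 ± 0.38 (SE, limma, Benjamini-Hochberg adjusted p = 0.0260). The median of these relatives was 0.28, and AUX6 stood at 0.74 ± 0.17 (limma, Benjamini-Hochberg adjusted p = 0.0611). In a wider list of auxin genes matched by name, 2 of 60 tested genes rose and 4 fell, with a median log2 fold change of 0.16 beside 0.00 for all genes tested.

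A pair of members were SBP-box genes, which encode plant transcription factors, many of them targets of miR156. sbp2 (GRMZM2G168229) had 221.4 and 218.4 normalized counts in the double mutant libraries, 110.5, 78.3, 86.4 and 95.8 in the ndl1 libraries, and 48.1, 96.6 and 89.3 in the wildtype libraries. tga1 (GRMZM2G101511), the gene of teosinte glume architecture that sets whether the kernel is encased, had 320.5 and 127.5 in the double mutant, 107.7, 148.8, 130.5 and 116.6 in ndl1, and 107.8, 107.2 and 92.7 in wildtype. The double mutant libraries were nearly equal for sbp2, with an L of 1.48. For tga1, with an L of 1.12, replicate 2 lay inside the ndl1 range and replicate 1 alone was far above it. Of 19 other tested SBP-box genes, 1 rose and 1 fell by limma, beside 2.23% and 2.05% of all genes tested. Their median log2 fold change was -0.04. The riser was sbp29, at 0.80 ± 0.10 (SE, limma, Benjamini-Hochberg adjusted p = 0.0156), and lg1, which forms the boundary between leaf blade and sheath, fell (-1.16 ± 0.24, limma, Benjamini-Hochberg adjusted p = 0.0470). With edgeR lg1 missed the threshold (Benjamini-Hochberg adjusted p = 0.0528). At an unadjusted limma p under 0.05, 3 of the 19 were higher and 1 lower, and DESeq2 called 2 higher and 1 lower.

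ZMM2 (GRMZM2G359952, also MADS35), a MADS-box gene of the AGAMOUS type that acts in stamens and carpels, had 164.3 and 239.3 normalized counts in the double mutant libraries. It had 74.3, 116.4, 116.4 and 42.5 in the ndl1 libraries and 105.9, 69.8 and 93.9 in the wildtype libraries, an L of 1.16 in Bif1;Bif4. Both double mutant libraries lay above all 7 others. Of 24 other tested MADS-box genes, 6 fell and 1 rose in Bif1;Bif4 by limma, beside 2.05% and 2.23% of all genes tested. Their median log2 fold change was -0.04. At an unadjusted limma p under 0.05, 7 were higher and 9 lower, and DESeq2 called 2 higher and 7 lower where edgeR called 1 and 5. MADS36 was the lowest of those with substantial reads, at 520.5 and 762.8 normalized counts in the double mutant against 4090.3, 4363.6 and 3684.4 in wildtype (log2 fold change -2.68 ± 0.16, limma, Benjamini-Hochberg adjusted p = 0.00303). MADS36 also fell in ndl1 (-1.69 ± 0.24, limma, Benjamini-Hochberg adjusted p = 0.0105). The riser in Bif1;Bif4 was m31, at 0.55 ± 0.09 (limma, Benjamini-Hochberg adjusted p = 0.0269).

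The bHLH transcription factor genes bHLH33 (GRMZM2G015666) and bHLH173 (GRMZM5G882527) were also members. bHLH33 had 126.8 and 217.4 normalized counts in the double mutant, 148.6, 91.7, 112.0 and 70.1 in ndl1, and 99.1, 58.4 and 77.8 in wildtype, with ndl1 replicate 1 above the lower double mutant library. bHLH173 had 267.0 and 385.6 in the double mutant, 207.1, 136.5, 207.2 and 100.8 in ndl1, and 175.2, 137.8 and 170.5 in wildtype, with no overlap between Bif1;Bif4 and the others. Of 31 other tested bHLH genes, 2 rose and 2 fell by limma, beside 2.23% and 2.05% of all genes tested. At an unadjusted limma p under 0.05, 5 were higher and 4 lower. DESeq2 called 4 higher and 2 lower where edgeR called 2 and 2. bHLH23 (0.95 ± 0.14, limma, Benjamini-Hochberg adjusted p = 0.0230) and bHLH36 (0.59 ± 0.10, limma, Benjamini-Hochberg adjusted p = 0.0269) rose. Of the bHLH genes that fell, BA1 (barren stalk1), needed to start axillary meristems, had 5.4 and 2.1 normalized counts in the double mutant against 387.9, 332.0 and 243.8 in wildtype. BA1 also fell in ndl1 (-1.83 ± 0.37, limma, Benjamini-Hochberg adjusted p = 0.0396).

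Among members with a role in metabolism, TPS17 (GRMZM2G010356), a terpene synthase gene also named EDS, had the largest ratio of any member with a name. It had 243.8 and 511.0 normalized counts in the double mutant libraries, 15.8, 31.3, 91.7 and 18.8 in the ndl1 libraries, and 61.6, 14.4 and 20.6 in the wildtype libraries. The L was 3.51 in Bif1;Bif4 and 0.27 in ndl1. The lower double mutant library was more than 2-fold above the highest of the others, although the wildtype and ndl1 libraries themselves varied widely.

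adh2 (GRMZM2G098346), a gene of alcohol dehydrogenase, the enzyme that makes ethanol in fermentation, had 998.2 and 721.0 normalized counts in the double mutant libraries. The ndl1 libraries had 300.0, 311.0, 635.8 and 624.3, in a low and a high pair, and the wildtype libraries 288.7, 377.9 and 426.9. The L was 1.24 in Bif1;Bif4 and 0.35 in ndl1. Its better known relative adh1 was not a member, and rose both in Bif1;Bif4 (0.69 ± 0.14, limma, Benjamini-Hochberg adjusted p = 0.0470) and in ndl1 (0.88 ± 0.17, limma, Benjamini-Hochberg adjusted p = 0.0323). These 2 comparisons share the wildtype libraries. A further alcohol dehydrogenase gene, adh1C, was unchanged in Bif1;Bif4 (-0.0007 ± 0.09, limma, Benjamini-Hochberg adjusted p = 0.997). The pyruvate decarboxylase genes, which act one step before, did not pass limma or edgeR in Bif1;Bif4: pdc3 stood at 0.85 ± 0.21 (limma, Benjamini-Hochberg adjusted p = 0.0756) and pdc2 at -0.82 ± 0.20 (limma, Benjamini-Hochberg adjusted p = 0.0744). DESeq2 called pdc3 higher (Benjamini-Hochberg adjusted p = 0.00180) and pdc2 lower (Benjamini-Hochberg adjusted p = 0.0250).

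gst6 (GRMZM2G129357), a glutathione transferase gene whose product belongs to a detoxifying enzyme family, had 292.0 and 217.4 normalized counts in the double mutant libraries, 146.8, 120.8, 166.7 and 90.9 in ndl1, and 105.9, 114.8 and 123.6 in wildtype. Both double mutant libraries lay above all others, with an L of 1.14. Of 19 other tested glutathione transferase genes, 0 rose and 0 fell by limma, with log2 fold changes of -0.17 to 1.79 and a median of 0.42 beside 0.00 for all genes tested. By edgeR 0 of these relatives passed as well, while DESeq2 called 1 higher and 6 were higher at an unadjusted limma p under 0.05. Reads of genes with near-identical copies, as in this family and among terpene synthases, may be split between copies and are uncertain.

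see2a (GRMZM2G081626), a legumain-type protease gene found by its rise in senescing maize leaves, was 1 of the 10 members with a mean of at least 1000. It had 1092.9 and 1269.6 normalized counts in the double mutant libraries, 612.1, 439.7, 557.3 and 567.0 in ndl1, and 464.8, 506.1 and 716.5 in wildtype. Its L was 1.07 in Bif1;Bif4 and -0.06 in ndl1. Both other protease genes with see names rose in Bif1;Bif4 by limma without meeting the rule. The cysteine protease gene see1 (ccp2) had a fitted log2 change of 0.71 ± 0.14 (limma, Benjamini-Hochberg adjusted p = 0.0410), and see2b, the close relative of see2a, 1.18 ± 0.25 (limma, Benjamini-Hochberg adjusted p = 0.0486). In ndl1, see1 stood at 0.13 ± 0.14 (limma, Benjamini-Hochberg adjusted p = 0.643) and see2b at 0.72 ± 0.19 (limma, Benjamini-Hochberg adjusted p = 0.0798). The difference between the mutants was not tested for either gene.

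A pair of named members act on the cell wall. Cel17 (GRMZM2G141911), a cellulase gene, had 56.3 and 113.9 normalized counts in the double mutant libraries, 9.3, 26.9, 25.6 and 17.8 in ndl1, and 39.5, 21 and 11.4 in wildtype. CesA12 (GRMZM2G142898), a cellulose synthase gene of secondary walls, had 73.2 and 44.9 in the double mutant, 41.8, 24.6, 55.6 and 21.7 in ndl1, and 27.9, 19.1 and 30.9 in wildtype. The double mutant libraries of both genes were uneven, and ndl1 replicate 3 lay above the lower double mutant library for CesA12. Of 7 other tested cellulose synthase genes (median 0.14) 0 passed in limma and edgeR, with 2 higher at an unadjusted limma p under 0.05 and 1 called higher by DESeq2. Of 4 other tested cellulase genes (median 0.56) 0 passed in limma, edgeR or DESeq2, nor at an unadjusted limma p under 0.05. Markers of vascular tissue and secondary walls, a list of 20 genes that contains CesA12, had 12 tested genes and a median of 0.79. Of these 1 rose in Bif1;Bif4 by limma, the cinnamoyl-CoA reductase gene listed as CCR or cncr1, beside 2.23% of all genes tested. At an unadjusted limma p under 0.05, 5 of the 12 tested markers were higher and 1 lower. Their summed level, on the joint scale of the 9 libraries, was 4111 to 4295 in Bif1;Bif4, 3702 to 7320 in ndl1 and 3308 to 4656 in wildtype, with 5 of the 20 at 0 in every library.

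GRMZM2G304378, whose identifier matched a pair of RefSeq genes, hyp1 and RNRL1, a ribonucleotide reductase subunit name, had 711.6 and 1365.8 normalized counts in the double mutant libraries. It had 528.5, 504.6, 425.9 and 229.2 in ndl1 and 609.2, 534.8 and 385.7 in wildtype. Its L of 1.03 rests mainly on replicate 2, and replicate 1 was less than 1.2-fold above the highest wildtype library.

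**Figure D3:**
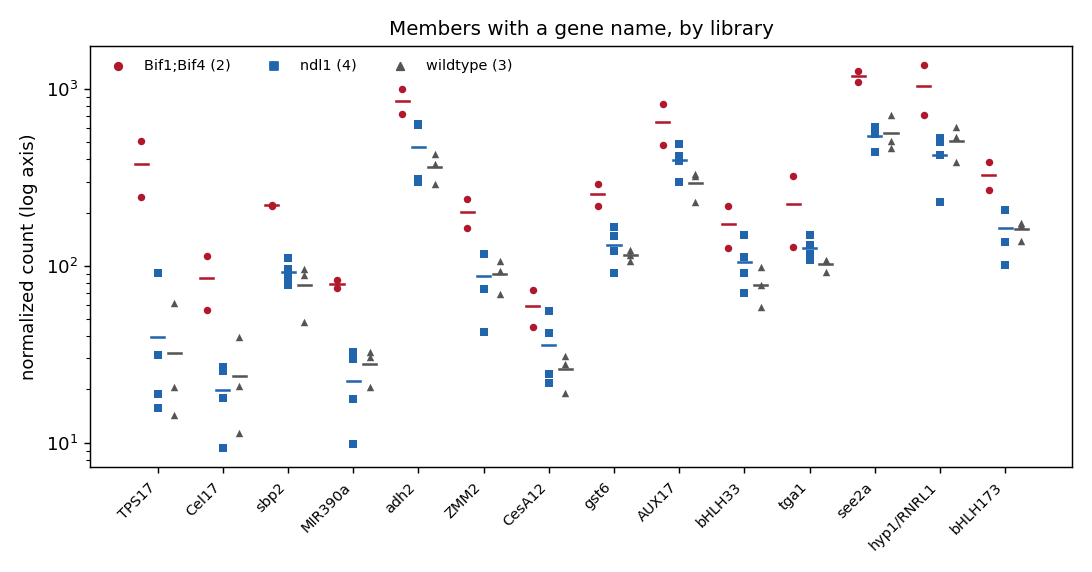
Normalized counts, on a log axis, of the 14 members with a gene name, ordered by L in Bif1;Bif4. Points are single libraries (2 of Bif1;Bif4, 4 of ndl1, 3 of wildtype) and horizontal lines are group means. The Bif1;Bif4 points are nearly equal for sbp2 and MIR390a and far apart for tga1, where replicate 2 (127.5) lies among the ndl1 points.

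**Figure D4:**
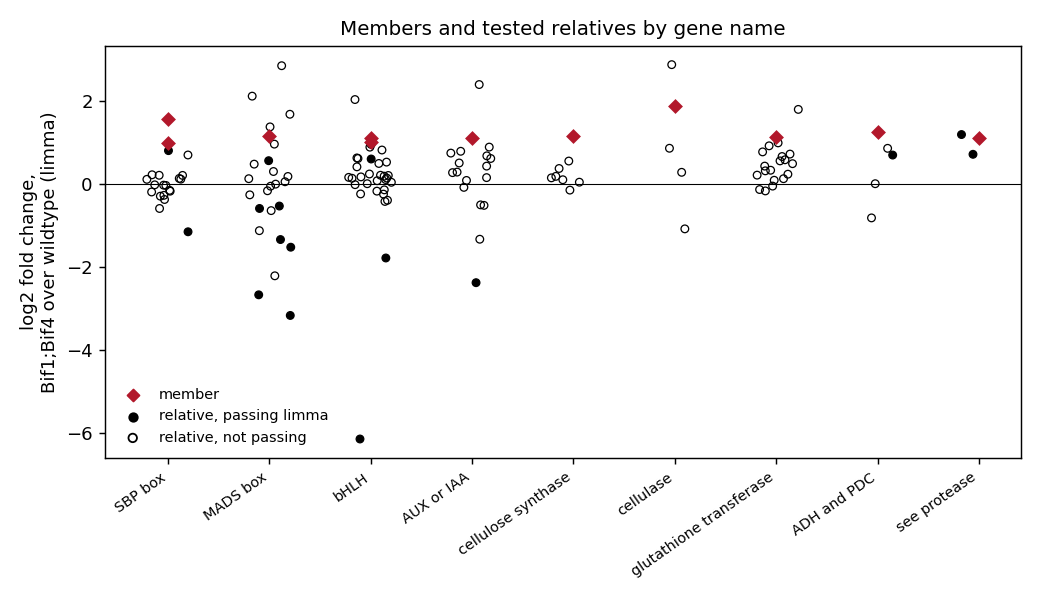
Log2 fold changes between Bif1;Bif4 and wildtype by limma for the named members (red diamonds) and for other tested genes of the same name group (circles, filled where they passed at an adjusted p of 0.05). The members were chosen for their height on this axis. The filled circles lie both above and below 0, with 6 of the 24 MADS-box relatives below and both see protease relatives above.

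The 9 name groups shown there, the MIR390 group and the marker lists were drawn up after the members and their values were known. In 22 broader lists by gene name, 1107 genes were tested, of which 45 rose and 53 fell by limma. Over all 22381 genes tested, 498 rose (2.23%) and 459 fell (2.05%). Of the members, 13 belonged to at least 1 list, and the list counts do not set them apart. Without wildtype replicate 2 limma called 1 gene in all and 0 genes of these lists, and without Bif1;Bif4 replicates 1 and 2 it called 48 and 29 genes. The summed level of leaf markers was 537 to 1180 in Bif1;Bif4, 420.3 to 638 in ndl1 and 619 to 800 in wildtype, with 1 of the 15 at 0 in every library. Of 9 tested leaf markers 0 passed in limma, edgeR or DESeq2, with 2 higher at an unadjusted limma p under 0.05. The higher leaf sum in Bif1;Bif4 was that of replicate 1. Anther and meiosis markers summed to 4070 to 4143 in Bif1;Bif4, 4947 to 5515 in ndl1 and 3892 to 3934 in wildtype, with 1 of 8 tested genes rising. The part of these tissues in the levels of members was not tested.

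By abundance the members were spread widely, with Bif1;Bif4 means of 50.1 to 3952 normalized counts and a median of 171, beside a median wildtype mean of 67.2. Of the 111, 34 lay under 100, 67 between 100 and 1000, and 10 at 1000 or above. The most abundant, GRMZM2G005236, had 4029.6 and 3873.7 normalized counts in the double mutant libraries, 1762.1, 1963.5, 1928.4 and 2995.3 in ndl1, and 1772.8, 1775.7 and 1732.9 in wildtype. Its wildtype libraries agreed closely, and both double mutant libraries were more than 2-fold above them, with an L of 1.17. GRMZM2G119361 had the widest gap of the abundant members, with 2862.6 and 2059.6 in the double mutant, 837.8, 693.7, 880.0 and 962.2 in ndl1, and 667.0, 705.1 and 762.3 in wildtype, an L of 1.79. GRMZM2G112210, in contrast, had 3875.1 and 2822.4 in the double mutant, 1991.5, 1375.0, 2469.0 and 2621.9 in ndl1, and 1480.2, 991.2 and 2221.6 in wildtype, so that the highest ndl1 library came within 1.2-fold of the lower double mutant library while the lowest wildtype library lay more than 2-fold below it. None of these 3 abundant genes has a name in the files or the annotation.

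The double mutant libraries agreed less well for members than for all genes above the limit on the mean. They differed at least 2-fold for 17 members, of which replicate 2 was higher for 10 and replicate 1 for 7. That is 15.3% of the members, against 2.25% of all genes with a Bif1;Bif4 mean of at least 50. Members were chosen on these same values, so the shares are a description. The libraries lay within 1.5-fold of each other for 63 members, 7 of them among the 14 with a name. The gap between the lower double mutant library and the highest wildtype library was at least 2-fold for 29 members, 23 of which had wildtype reads, and under 1.2-fold for 7. Within ndl1 the highest library was at least 2-fold above the lowest for 39 members, and within wildtype for 12.

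The position of members along the genome was not used by the rule. Gene order was taken from Zm-B73-REFERENCE-NAM-5.0, counted in protein-coding gene places, and covers the matched genes with a mean of at least 50 normalized counts in Bif1;Bif4 or wildtype. Within 250 places on either side of BIF1, 5 of 167 such genes were members (2.99%), against 63 of 12883 elsewhere (0.489%). The share of genes with an L of at least 1, whatever the ndl1 ratio, was 5.99% in this window and 2.13% elsewhere, and that of genes with an L of -1 or less was 1.80% and 1.41%. In a window of 100 places 2 of 66 genes were members (3.03%, against 0.508% elsewhere), and in 1 of 500 places 6 of 323 (1.86%, against 0.487%). These windows were chosen after the values were seen, the counts are small, and no test was made.

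The 5 members near BIF1 were GRMZM2G049781 and GRMZM2G119361 on one side, 156 and 103 places away, and GRMZM2G151909, ZMM2 and GRMZM2G072029 on the other, 80, 82 and 146 places away. GRMZM2G151909 had 374.1 and 501.6 normalized counts in the double mutant against 121.3, 145.4 and 202.6 in wildtype, an L of 1.48. GRMZM2G072029 had 53.6 and 54.3 in the double mutant against 21.2, 34.4 and 21.7 in wildtype, and GRMZM2G049781 had 2392.0 and 2292.6 against 897.0, 1167.2 and 1444.5. None of these 5 genes showed overlap between Bif1;Bif4 and wildtype libraries, as the rule demands, and the double mutant libraries lay within 1.5-fold of each other for each of them. Near BIF4, 2 of 195 genes within 250 places were members (1.03%, against 0.513% elsewhere). They were GRMZM5G801627, 54 places away with 367.9 and 348.0 normalized counts in the double mutant against 194.4, 120.5 and 68.7 in wildtype, and GRMZM5G835629, 144 places away. Within 250 places of NDL1, 0 of 189 genes were members, against 0.529% elsewhere, a share too low for this count to tell anything. NDL1 lies on the same chromosome as BIF1, and that chromosome holds 12 members among 1173 genes (1.02%, against 0.47% elsewhere). Effects of the mutant Bif1 allele and of the chromosome segment that came with it cannot be told apart in these samples.

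**Figure D5:**
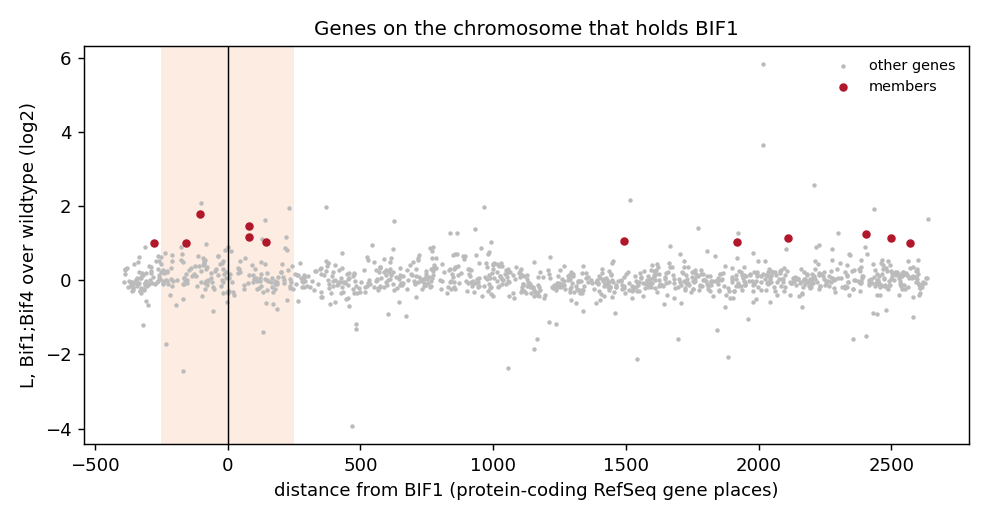
L in Bif1;Bif4 of matched genes on the chromosome of BIF1, plotted against their distance from BIF1 in protein-coding gene places. Red points are members, grey points the other genes, and the shaded band spans 250 places on either side of BIF1. The band holds 5 of the 12 members of this chromosome, and the points to its right include a long stretch without any member.

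Some members neighboured each other. GRMZM2G168382 lay 2 places from TPS17, GRMZM2G151909 2 places from ZMM2, GRMZM2G303149 4 places from GRMZM2G089528, and GRMZM2G089472, without reads outside Bif1;Bif4, 8 places from GRMZM2G154223. GRMZM2G168382 had 325.0 and 557.0 normalized counts in the double mutant against 277.2, 181.8 and 200.3 in wildtype, so that, as for TPS17, replicate 2 was the higher. GRMZM2G303149 had 439.3 and 269.6 against 129.0, 187.5 and 179.7, while its neighbour GRMZM2G089528 had 172.3 and 169.3 against 66.4, 77.5 and 73.3. The strand setting of the counting is not given in the sources used here, so reads of genes that overlap cannot be assigned with certainty.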

How the data were processed

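RNA-seq was available for 9 tassel libraries. The submitters' processing notes name TopHat2 2.1.1, HTSeq, Trimmomatic and DESeq2. Libraries were stranded, per the labels' protocols. The genome build is not given in the sources used here. The deposited tables, 1 per mutant, hold signal values: normalized counts, which per the file headers the authors took from DESeq2, the reads of a library over its size factor. Log2 fold changes, each p-value and the test statistic score were also deposited by the authors. Recovered reads were whole within 0.1 reads for 100% of values.

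L was computed from the means of each table. Tests used limma 3.58.1 in R 4.3.3, with its trend option and log2(normalized count + 1) as input, on genes kept by filterByExpr (minimum count 10), with Benjamini-Hochberg adjustment over all genes tested and a threshold of 0.05. The added 1 shrinks changes of low genes. edgeR 4.0.16, the quasi-likelihood test, and DESeq2 1.42.0 were run on the recovered reads, and the fits were checked on simulated data. Joint scaling of the 9 libraries used DESeq2 size factors. TMM scaling over the 9 libraries was used only as a setting for the members and their median L.

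The members, gene lists and most tests were chosen with earlier results of these data known. Genes named were the mutated genes, members with a symbol, the 10 most abundant members, members at the limits and neighbours; of the last 3 kinds the text gives a part. Genes without reads elsewhere, GRMZM2G143403, GRMZM2G349791 and GRMZM2G119361 were picked after their values were seen. Planned promoter motifs were not analysed here, and 2 identifiers are not reported here.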

Additional observations from a re-analysis of the deposited data

Results flagged for a closer look

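Of 42 named members, 36 could be examined for an ndl1 library far from the other 3, and 3 had one, each time replicate 4. Chance gives such a gap in about 1 of 20 groups of values with a normal spread, which counts of a few reads do not have. The genes share the same libraries, so the 3 gaps are not independent. GRMZM2G005236, the most abundant member, stood at 2995.3 normalized counts in ndl1 replicate 4 and at 1762.1 to 1963.5 in the other ndl1 libraries. GRMZM2G151909, a neighbour of ZMM2, stood at 107.7 in ndl1 replicate 4 and at 139.3 to 145.4 in the others. GRMZM2G143403 stood at 3.0 in ndl1 replicate 4 and at 0.9 to 1.1 in the others, a matter of a few reads.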

How the results depend on the processing

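The number of members was 111 by the rule, 56 with an ndl1 window of 0.25, and 23 with an L of at least 1.5. With single libraries left out it was 112 to 174, highest without Bif1;Bif4 replicate 2, where 79 of the 111 were found again. With 10 in place of 1 added to each mean it was 110, of which 86 were shared, and with TMM scaling 110, all shared. The median L of the 111 was 1.13 to 1.27 over the left-out libraries, the added 10 and TMM. Of 462 recomputed L values of 42 named members, 12 moved beyond the replicate spread and 0 changed sign.

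Limma called 957 genes in Bif1;Bif4 and 708 in ndl1. DESeq2 called 2105 (1093 higher, 1012 lower) and 2210. Leaving out 1 library gave 1 to 1299 in Bif1;Bif4, with 492 without wildtype replicate 1, 48 without Bif1;Bif4 replicate 1 and 29 without replicate 2, and 111 to 1467 in ndl1. An arm left with 1 library was assumed to vary like the other group. Genes of the name lists called in Bif1;Bif4 numbered 98, with 206 in DESeq2 and 0 to 123 with 1 library left out. Members called numbered 61, with 95 in DESeq2 and 0 to 60 with 1 library left out. In ndl1 members called numbered 0, and 1 without ndl1 replicate 4. With the replicate number as a block these counts were 431, 365, 47 and 25. The sample labels do not say whether equal replicate numbers pair the samples. Deviations of equal numbers from their group means correlated at -0.22 to 0.22. These correlations cannot decide on pairing, because deviations within such small groups are tied to each other. The cause of these shifts was not tested. With 2 Bif1;Bif4 libraries, levels near 50 normalized counts rest on few reads in each library.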
